A study of Mus musculus with 7 samples.

Results

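The T-lineage commitment factors are the transcription regulators that turn a multipotent progenitor into a T cell and later decide between the CD4 and CD8 lineages. The list held 10 genes, of which 9 had probe sets annotated to their symbol alone: Bcl11b, Gata3, Lef1, Runx1, Runx3, Zbtb7b, Tox, Satb1 and Ets1. Tcf7 was not analysed here. All 29 probe sets of these 9 genes are reported, of 45037 probe sets on the array. The 45037 probe sets gave 18193 genes when each gene was represented by its brightest probe set with 1 symbol.

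The study compared leukemic cells of terminally ill C57Bl/6 mice with T-cell acute lymphoblastic leukemia of 2 genotypes. The 3 ICN1 arrays held bone marrow cells of mice whose leukemia was driven by the activated intracellular part of NOTCH1. The 4 TEL-JAK2 arrays held thymus cells of mice whose leukemia was driven by a fusion that keeps the kinase JAK2 active. The sources used here do not say how either oncogene was delivered, how old the mice were, or whether each array held 1 animal. No step that sorted the cells is named, and each genotype came from 1 tissue, so genotype and tissue cannot be told apart. Differences are TEL-JAK2 minus ICN1 on the log2 scale with the fit's standard error (SE), for n = 3 and n = 4 arrays. A gene or probe set was called at an adjusted p under 0.05. The labels give each sample a number of its own but do not state that it marks an animal, and p-values measure only the spread among these arrays.

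T-cell commitment begins when NOTCH signalling in the thymus switches on the factors TCF1 (encoded by Tcf7) and GATA3, which in turn help to open the Bcl11b locus. BCL11B then shuts off progenitor and natural killer (NK) programs, while the RUNX, ETS and E-protein factors act with it at T-cell genes. After the pre-T-cell receptor checkpoint, TOX, SATB1, LEF1, ThPOK (encoded by Zbtb7b) and RUNX3 carry the cells through positive selection and the choice between helper and cytotoxic fates. Several of these genes, among them Bcl11b, Runx1, Lef1 and Gata3, are recurrently altered in human T-cell leukemia.

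Several of these factors act on each other's genes, so the sequence at a start site is shown for 4 of the members. RefSeq promoters (GRCm38.p6, 250 bases before to 50 after a start site) matched 7 of the 9 genes, with 17 start sites. Ets1 and Tox had no entry. Capitals mark 4 motifs searched as exact words of 6 letters on both strands. The RUNX motif was TGTGGT, which shows as ACCACA on the opposite strand. The ETS motif was AGGAAG, which shows as CTTCCT on the opposite strand. The GATA motif was AGATAA, or TTATCT when reversed and complemented, and the motif of TCF and LEF factors was CTTTGA, or TCAAAG when reversed and complemented. The 4 sequences are the start listed for Bcl11b, the upstream starts of Runx1 and Runx3, and an internal start of Lef1. The Bcl11b start lies inside the gene, whose RefSeq span reaches base 108004145. Bcl11b differed most between the leukemias, and Lef1 was the member with lower means in TEL-JAK2 from both probe sets. Runx1, Runx3 and Lef1 were not called.
Bcl11b, chr12:108003365-108003664, minus strand: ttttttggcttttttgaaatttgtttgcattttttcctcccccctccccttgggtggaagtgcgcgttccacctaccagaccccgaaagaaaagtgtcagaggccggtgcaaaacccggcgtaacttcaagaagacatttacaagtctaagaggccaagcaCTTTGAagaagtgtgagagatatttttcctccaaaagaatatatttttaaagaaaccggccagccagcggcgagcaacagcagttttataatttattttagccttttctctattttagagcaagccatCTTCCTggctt
Runx1, chr16:92826025-92826324, minus strand: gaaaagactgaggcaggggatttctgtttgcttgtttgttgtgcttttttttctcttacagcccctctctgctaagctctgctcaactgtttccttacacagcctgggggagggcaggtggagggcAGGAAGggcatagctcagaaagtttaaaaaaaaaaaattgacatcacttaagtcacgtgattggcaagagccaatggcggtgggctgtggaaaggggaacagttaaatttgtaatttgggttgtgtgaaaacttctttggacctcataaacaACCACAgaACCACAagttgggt
Runx3, chr4:135120395-135120694, plus strand: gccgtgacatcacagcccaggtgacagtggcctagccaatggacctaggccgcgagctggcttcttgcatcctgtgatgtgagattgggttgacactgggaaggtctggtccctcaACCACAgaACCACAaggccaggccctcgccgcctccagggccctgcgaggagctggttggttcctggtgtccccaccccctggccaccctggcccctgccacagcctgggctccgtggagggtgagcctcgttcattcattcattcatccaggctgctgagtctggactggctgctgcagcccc
Lef1, chr3:131156044-131156343, plus strand: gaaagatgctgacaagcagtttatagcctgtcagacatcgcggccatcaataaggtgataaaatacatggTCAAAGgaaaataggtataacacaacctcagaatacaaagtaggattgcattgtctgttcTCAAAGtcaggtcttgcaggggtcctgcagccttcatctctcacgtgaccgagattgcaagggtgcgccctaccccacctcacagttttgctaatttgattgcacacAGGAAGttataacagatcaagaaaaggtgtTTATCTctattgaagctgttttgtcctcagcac
The Bcl11b window held a TCF and LEF word 89 bases before the start site (at -89) and an ETS word at 40 after it. The Runx1 window held 2 RUNX words, at 29 and 37 after its start, and 1 ETS word at -124. The Runx3 window held 2 RUNX words, at -134 and -126. The Lef1 window held 2 TCF and LEF words, at -180 and -120, an ETS word at -13 and a GATA word at 18. The other listed windows of Runx1, Runx3 and Lef1, not printed here, held none of these words. Over the 17 member windows the RUNX word was in 3, the ETS word in 7, the GATA word in 1 and the TCF and LEF word in 2. Over all 32851 windows in the table these shares were 16.8%, 35.4%, 11.2% and 16.0%. These are matches of letters, and no binding was measured.

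Facts of the whole series frame these results. Array medians lay between 5.44 and 5.50, and Pearson's r over all probe sets was 0.973 to 0.989 within a group and 0.921 to 0.944 between groups. Both groups carried the T-cell markers, with a mean level of the list of 11.43 to 11.63 in ICN1 and 11.95 to 12.07 in TEL-JAK2. Of its 9 measured genes 6 were higher and 1 was lower, where 11.9% of all genes were called higher and 12.2% lower. The erythroid list read 12.01 to 12.29 in ICN1 marrow and 6.05 to 6.41 in TEL-JAK2 thymus, with 9 of 10 genes lower. ICN1 replicates 1 and 2 read both Xist (11.51 and 11.78) and the Y-linked Eif2s3y (8.93 and 9.41). ICN1 replicate 3 and TEL-JAK2 replicates 1, 2 and 3 read Xist alone, and TEL-JAK2 replicate 4 read Eif2s3y alone (10.23, with Xist at 5.19). Member calls that changed when ICN1 replicates 1 and 2 were left out together are given beside the values, with the lone ICN1 array assumed to vary like the TEL-JAK2 arrays.

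**Figure D1:**
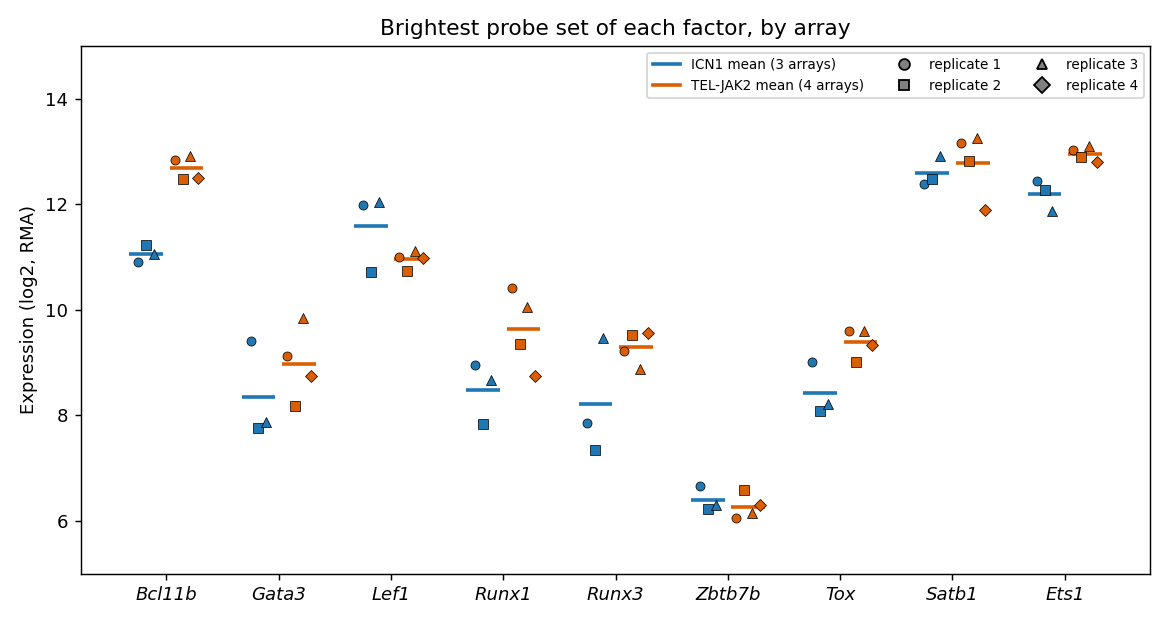
Expression (log2, RMA) of the brightest probe set of each of the 9 factors, 1 point per array, shaped by replicate, with a line at the mean of the 3 ICN1 and the 4 TEL-JAK2 arrays. The TEL-JAK2 points lie above all ICN1 points for Bcl11b and Ets1, and the groups overlap for the other 7 genes.

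Among the 9 factors, Bcl11b, Ets1 and Tox were higher in TEL-JAK2 leukemia, and none was lower. That is 3 of 9 genes, where 11.9% of all genes were called higher and 12.2% lower. At an unadjusted p under 0.05, 15 of the 29 probe sets were higher and 0 lower, where 16.6% and 15.7% of all probe sets were. The median difference of the 9 genes was 0.76, against 0.04 over all genes. Of the 29 probe sets 9 were called higher and 0 lower, where 9.26% and 10.3% of all probe sets were called. The groups did not overlap in 7 of the 29, all with TEL-JAK2 above. Over all probe sets 16.2% lay that way and 14.4% lay with TEL-JAK2 below. Bcl11b and Ets1 were the 2 genes whose brightest probe sets did not overlap, where 18.4% of all genes lay with TEL-JAK2 above and 15.9% with TEL-JAK2 below. Probe sets of a gene read the same RNA samples, and some were designed on the same transcript record, so they are repeat readings and not replicates.

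Bcl11b, the zinc-finger factor that seals T-cell commitment, was 3.08-fold higher in TEL-JAK2. Its brightest probe set (1435227_at) read 10.91, 11.22 and 11.05 in the ICN1 arrays and 12.85, 12.47, 12.92 and 12.50 in the TEL-JAK2 arrays. The ICN1 arrays lay within 0.32 of each other, and the lowest TEL-JAK2 array stood more than 1 log2 unit above the highest ICN1 array. The difference was 1.62 ± 0.15 (adjusted p = 0.000476 by limma over all genes). In these bulk samples more cells with the transcript and more transcript per cell cannot be told apart. The other 3 probe sets differed by 1.78 ± 0.22 (1450339_a_at), 1.53 ± 0.19 (1452966_at) and 1.89 ± 0.26 (1438784_at). All 4 were called and none overlapped between groups. The gene was called in all 21 alternative fits, among them the 7 that left out 1 array (differences from 1.54 to 1.70). The probe set 1438784_at lost its call without ICN1 replicates 1 and 2 (adjusted p = 0.0504) and in a per-gene test with unequal variances (adjusted p = 0.0548).

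The CD3 genes also stood higher in TEL-JAK2, so each array was set to the same mean of Cd3d, Cd3e, Cd3g and Cd247, which encode the CD3 chains of the T-cell receptor. This centring lowered every difference by the same amount, -0.62, and moved the median of all genes to -0.58. Bcl11b stayed higher at 1.0 (adjusted p = 0.00212 by limma), and all 4 of its probe sets were called. It was then the single member called higher, while Lef1 and Zbtb7b were called lower. Over all genes, too, fewer were called higher with this centring than without it, and most were called lower. The counts with CD3 centring given for the members and for the lists below share this shift. Whether a list differed from all genes in that setting was not tested, so neither its higher nor its lower calls set it apart.

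Ets1, the founding member of the ETS family and an activator of T-cell receptor genes, was 1.70-fold higher. Its brightest probe set (1426725_s_at) read 12.44, 12.27 and 11.87 in ICN1 and 13.04, 12.90, 13.10 and 12.81 in TEL-JAK2. All TEL-JAK2 arrays were above all ICN1 arrays, by 0.36 at the closest. The difference was 0.76 ± 0.15 (adjusted p = 0.0112 by limma over all genes), and the call held in the 7 fits without 1 array (adjusted p from 0.0124 to 0.0362). With CD3 centring it was 0.14 and not called (adjusted p = 0.393). Among the other Ets1 probe sets, 1452163_at (0.65 ± 0.14) and 1422028_a_at (1.09 ± 0.27) were called, and 1422027_a_at (0.84 ± 0.26) was not (adjusted p = 0.0663). The call of 1452163_at went when ICN1 replicate 2 (adjusted p = 0.0567), ICN1 replicate 3 (0.0544) or TEL-JAK2 replicate 1 (0.0531) was omitted. That of 1422028_a_at held in just 2 of the 7 such fits, those omitting ICN1 replicate 1 or TEL-JAK2 replicate 4, and the adjusted p was up to 0.0810 in the other 5. Without ICN1 replicates 1 and 2 both calls went (adjusted p = 0.0783 for 1452163_at and 0.0597 for 1422028_a_at), as they did with CD3 centring. The uncalled 1422027_a_at was called without ICN1 replicate 1 (1.07, adjusted p = 0.0363) or TEL-JAK2 replicate 4 (1.0, adjusted p = 0.0343).

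Tox, a high-mobility-group factor needed for the CD4 lineage and induced by T-cell receptor signalling, was 1.94-fold higher. Its brightest probe set (1425483_at) read 9.004, 8.08 and 8.21 in ICN1 and 9.61, 9.002, 9.61 and 9.34 in TEL-JAK2. ICN1 replicate 1 reached the level of TEL-JAK2 replicate 2, so the groups overlapped by a narrow margin. The difference was 0.96 ± 0.26 (adjusted p = 0.0328 by limma over all genes). The call went when ICN1 replicate 2 (adjusted p = 0.104) or 3 (0.0960) was omitted, or TEL-JAK2 replicate 1 (0.0866), 3 (0.0802) or 4 (0.0592). With CD3 centring the difference was 0.34 (adjusted p = 0.227). The probe set 1425484_at (0.70 ± 0.20) was called as well, with an adjusted p = 0.0492 that lies next to the threshold, and 1442039_at (0.44 ± 0.19) was not (adjusted p = 0.153). Like the brightest, 1425484_at was called in 2 of the 7 leave-one-out fits, with ICN1 replicate 1 or TEL-JAK2 replicate 2 omitted (adjusted p up to 0.144 in the other 5). Without ICN1 replicates 1 and 2 it was not called (adjusted p = 0.0989), while 1442039_at was (0.83, adjusted p = 0.0352). Omitting ICN1 replicate 1 alone also gave 1442039_at a call (0.63, adjusted p = 0.0422).

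**Figure D2:**
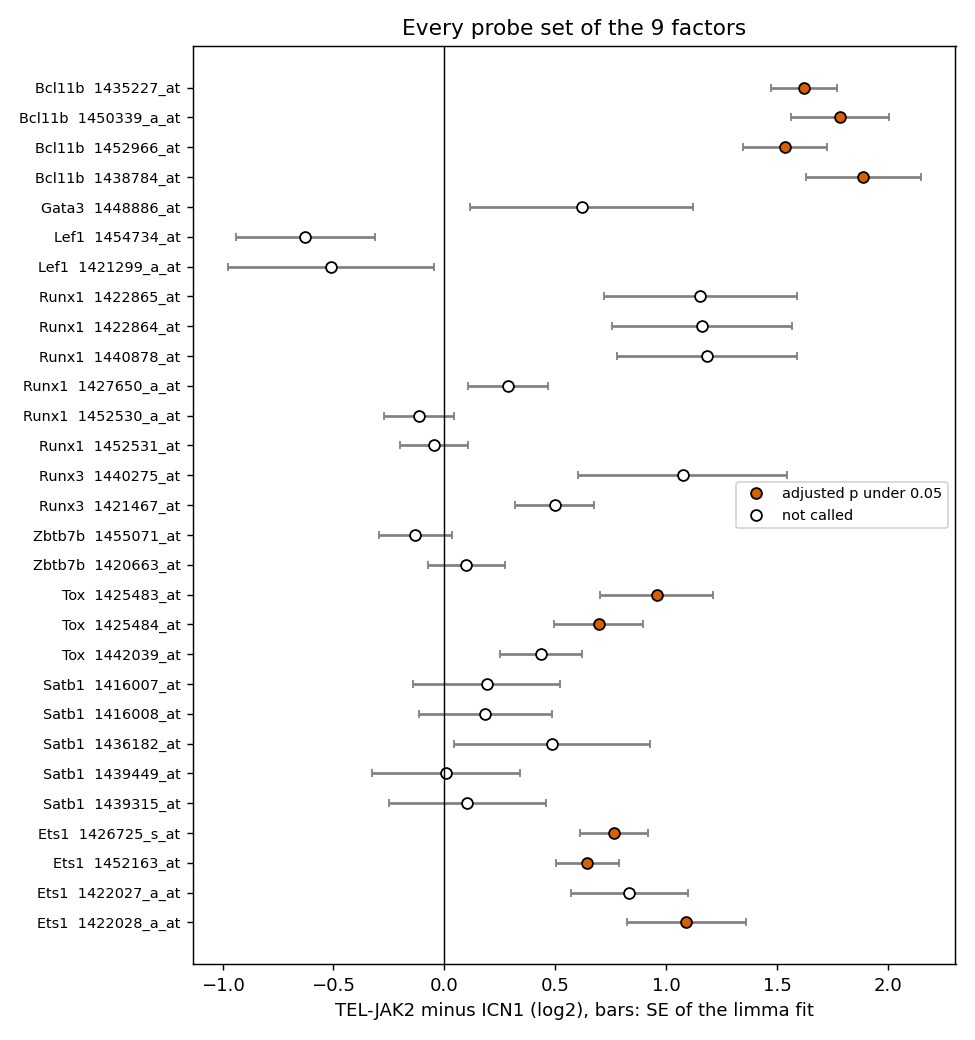
Difference between TEL-JAK2 and ICN1 (log2) for each of the 29 probe sets, with the SE of the limma fit as bars and filled points for an adjusted p under 0.05. The 4 Bcl11b probe sets lie between 1.53 and 1.89, while the 6 Runx1 probe sets spread from -0.11 to 1.19.

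Lef1, which encodes a relative of TCF1 that also acts in WNT signalling and in CD4 lineage choice, was the member with the lowest difference. Its brightest probe set (1454734_at) read 11.99, 10.72 and 12.05 in ICN1 and 11.01, 10.74, 11.11 and 10.97 in TEL-JAK2. ICN1 replicates 1 and 3 stood above every TEL-JAK2 array, and ICN1 replicate 2 stood below them all. The TEL-JAK2 arrays lay within 0.38 of each other. The difference of -0.63 ± 0.32 was not called (adjusted p = 0.208 by limma). Without ICN1 replicate 2 it was -1.06 and called (adjusted p = 0.00436), as it was with CD3 centring (-1.25, adjusted p = 0.0144) and without ICN1 replicates 1 and 2 (-1.09, adjusted p = 0.0203). The second probe set (1421299_a_at) repeated the order of the ICN1 arrays, with 10.17, 8.62 and 10.87, against 9.24 to 9.55 in TEL-JAK2. Its difference of -0.51 ± 0.47 was not called. It was -1.14 and called without ICN1 replicate 2 (adjusted p = 0.0143), and -1.49 and called without ICN1 replicates 1 and 2 (adjusted p = 0.0063). ICN1 replicate 2 had the highest granulocyte (8.61), megakaryocyte (7.86), B-lineage (7.40) and dendritic cell (7.86) levels of the ICN1 arrays. The part of those cells in the Lef1 reading was not tested.

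Gata3, the zinc-finger factor that starts T-cell specification and later favours the CD4 lineage, had 1 probe set (1448886_at). It read 9.41, 7.77 and 7.87 in ICN1 and 9.12, 8.17, 9.84 and 8.75 in TEL-JAK2. The ICN1 arrays spread over 1.64 log2 units and the TEL-JAK2 arrays over 1.67, and ICN1 replicate 1 stood above 3 of the 4 TEL-JAK2 arrays. The difference of 0.62 ± 0.51 was not called (adjusted p = 0.438 by limma) and was -0.003 with CD3 centring. Leaving out 1 array moved it from 0.33 (without ICN1 replicate 2 or TEL-JAK2 replicate 3) and 0.38 (without ICN1 replicate 3) to 1.15 (without ICN1 replicate 1), and none of these 7 fits called it.

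Runx1 and Runx3 encode DNA-binding subunits of core binding factor. RUNX1 acts from stem cells to early T cells and RUNX3 silences Cd4 in cytotoxic cells. The brightest Runx1 probe set (1422865_at) read 8.96, 7.83 and 8.67 in ICN1 and 10.41, 9.34, 10.06 and 8.75 in TEL-JAK2. TEL-JAK2 replicates 1, 2 and 3 lay above the ICN1 arrays, and replicate 4 lay among them. The difference of 1.15 ± 0.44 was not called (adjusted p = 0.102 by limma), and without TEL-JAK2 replicate 4 it was 1.45 and called (adjusted p = 0.0367). A pair of further probe sets gave like differences, at 1.16 ± 0.40 (1422864_at, adjusted p = 0.0888) and 1.19 ± 0.41 (1440878_at, adjusted p = 0.0851), and without TEL-JAK2 replicate 4 both were called (1.44 and 1.51, adjusted p = 0.0322 and 0.0154). The other 3 differed by 0.29 ± 0.18 (1427650_a_at), -0.11 ± 0.16 (1452530_a_at) and -0.05 ± 0.15 (1452531_at), none called. The sources used here do not say which Runx1 transcripts each probe set reads.

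The brightest Runx3 probe set (1440275_at) read 7.86, 7.34 and 9.46 in ICN1 and 9.21, 9.53, 8.88 and 9.57 in TEL-JAK2. ICN1 replicate 3 stood with the TEL-JAK2 arrays and the other ICN1 arrays stood at least 1 log2 unit below them. The difference of 1.08 ± 0.47 was not called (adjusted p = 0.152 by limma). It was 1.70 and called without ICN1 replicate 3 (adjusted p = 0.00573), and -0.17 without ICN1 replicates 1 and 2 (adjusted p = 0.778). The dimmer probe set (1421467_at) differed by 0.50 ± 0.18 and was not called (adjusted p = 0.0969). In that probe set ICN1 replicate 3 was again the highest ICN1 array, at 5.83 against 5.28 and 5.52. ICN1 replicate 3 was the lowest ICN1 array for 8 of the 9 marker lists, all but thymic epithelium, among them macrophages (8.80 against 10.17 and 9.91) and granulocytes (6.48 against 7.46 and 8.61). The part of other cells in the Runx3 reading was not tested.

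Zbtb7b encodes ThPOK, which fixes the CD4 helper fate and opposes RUNX3. Its brightest probe set (1455071_at) read 6.67, 6.23 and 6.31 in ICN1 and 6.05, 6.59, 6.15 and 6.29 in TEL-JAK2. TEL-JAK2 replicates 1 and 3 lay below the ICN1 arrays, ICN1 replicate 1 lay above the TEL-JAK2 arrays, and the rest overlapped. The difference was -0.13 ± 0.17 (adjusted p = 0.625 by limma). With CD3 centring it was -0.75 and called (adjusted p = 0.0173). The other probe set (1420663_at) read 0.10 ± 0.17. Zbtb7b was dim, with a mean of 6.33 over all arrays at percentile 49.9 of all genes. Whether it was above background was not tested.

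Satb1, a chromatin organizer of thymocytes, had 5 probe sets. The brightest (1416007_at) read 12.39, 12.48 and 12.92 in ICN1 and 13.17, 12.82, 13.26 and 11.89 in TEL-JAK2. TEL-JAK2 replicate 4 was the lowest of the 7 arrays and TEL-JAK2 replicates 1 and 3 were the highest. The difference was 0.19 ± 0.34 (adjusted p = 0.732 by limma), and -0.43 with CD3 centring, not called. None of the 5 was called, with differences from 0.01 to 0.49. The SD over the 4 TEL-JAK2 arrays was 0.88 for 1436182_at, which read 11.39, 10.89, 11.40 and 9.53, against 0.16 over the ICN1 arrays. Without TEL-JAK2 replicate 4 this probe set differed by 0.91 and was called (adjusted p = 0.0152 by limma).

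Differences between 2 members within an array do not depend on adding a constant to the array, such as the CD3 centring, and 4 of the 6 planned pairs could be formed. Runx3 minus Zbtb7b, the cytotoxic against the helper factor, was 1.21 ± 0.68 higher in TEL-JAK2 (exact two-sided permutation p = 0.171). The within-array values were 1.19, 1.11 and 3.15 in ICN1 and 3.17, 2.93, 2.73 and 3.27 in TEL-JAK2, so ICN1 replicate 3 stood among the TEL-JAK2 arrays. Gata3 minus Zbtb7b differed by 0.75 ± 0.60 and Tox minus Satb1 by 0.77 ± 0.49 (exact permutation p = 0.286 and 0.229). Zbtb7b was dim in both groups, and whether the pairs with it reflect more than the other member was not tested. Runx3 minus Runx1 differed by -0.08 ± 0.75 (exact permutation p = 0.857). The 35 splits of 3 and 4 arrays allow no p below 0.0571, so none of the pairs could pass, and adjusted over the 4 pairs the p-values were 0.381 to 0.857.

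**Figure D3:**
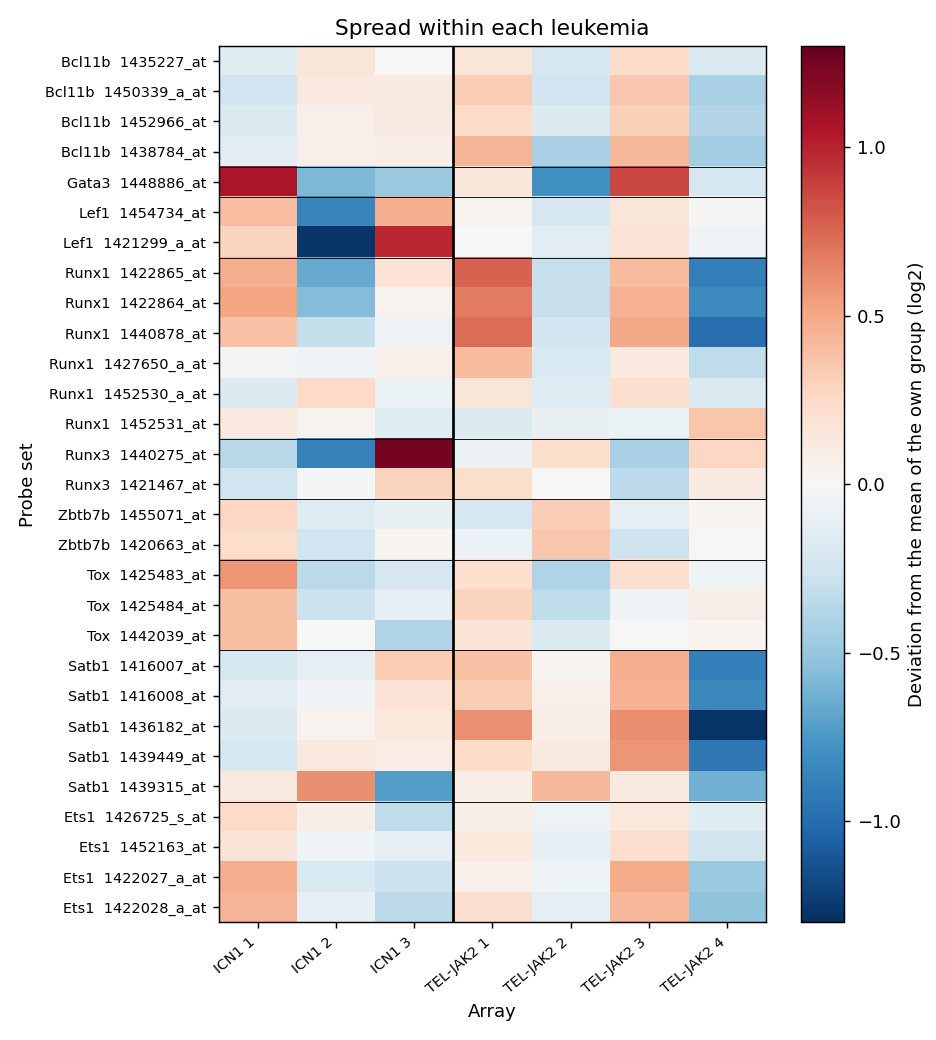
Deviation of each array from the mean of its own group (log2) for the 29 probe sets, with ICN1 arrays left and TEL-JAK2 arrays right of the line. TEL-JAK2 replicate 4 is the lowest of its group for all 5 Satb1, all 4 Ets1 and 5 of the 6 Runx1 probe sets.

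Within TEL-JAK2 many of the factors gave the arrays the same order. TEL-JAK2 replicates 1 and 3 both lay above replicates 2 and 4 in 21 of the 29 probe sets, an order seen in 23.2% of all probe sets. The opposite order held in 3 of the 29 and in 17.9% of all. This split of the arrays was not among the planned comparisons. The 29 probe sets are repeat readings of 9 genes, so these shares only describe the arrays. The 21 were all 4 of Bcl11b, all 4 of Ets1, 5 of 6 of Runx1, 4 of 5 of Satb1, both of Lef1, the 1 of Gata3 and 1 of 3 of Tox. The 2 Runx3 and 2 Zbtb7b probe sets did not follow this order. TEL-JAK2 replicate 3 was the lowest for both Runx3 probe sets and TEL-JAK2 replicate 2 the highest for both Zbtb7b probe sets. The NK list ran the other way in these arrays, with mean levels of 7.58, 8.62, 7.09 and 8.30 in replicates 1 to 4. The macrophage list did so too, with 7.08, 8.20, 6.35 and 8.44. T-cell marker levels differed little, from 11.95 to 12.07. These orders are descriptions of 4 arrays, and the part of other cells in them was not tested. Within ICN1, Bcl11b (lowest in replicate 1 for all 4 probe sets) and Ets1 (highest in replicate 1 for all 4) did not share an order.

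**Figure D4:**
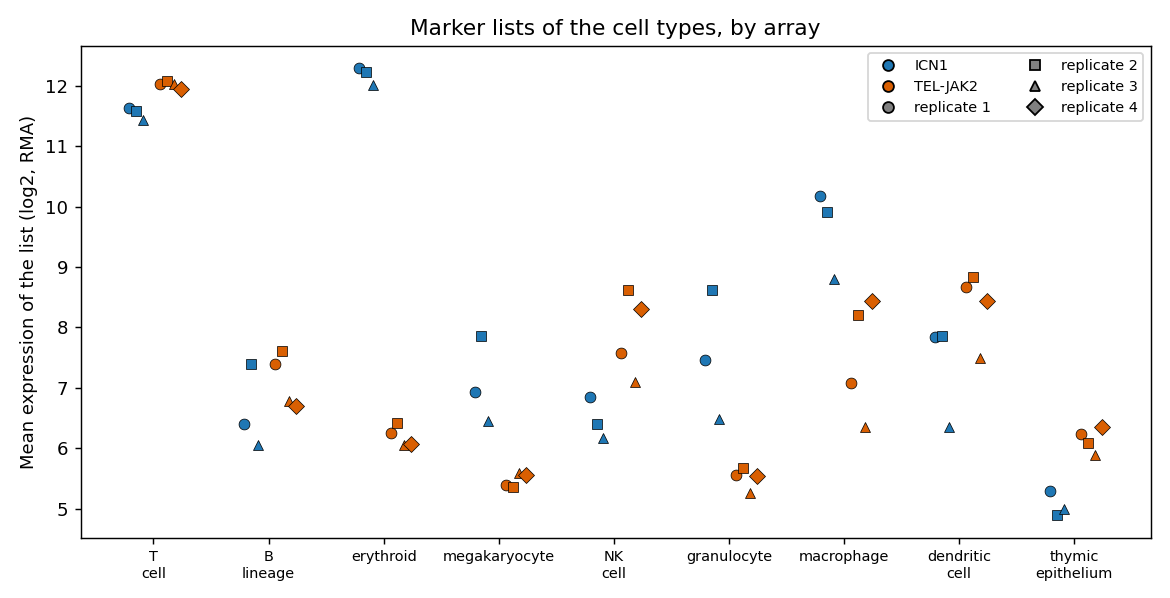
Mean expression (log2, RMA) of each list of cell type markers, 1 point per array, shaped by replicate. The T-cell list lies between 11.43 and 12.07 in all 7 arrays, while the erythroid list separates the groups, at 12.01 to 12.29 in ICN1 and 6.05 to 6.41 in TEL-JAK2.

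Of 17 measured relatives in the same gene families, 3 were higher, 0 lower and 14 not called, with a median of 0.08. Beside this list and each list below stand the shares over all genes, 11.9% called higher and 12.2% lower. These shares are from the fit without CD3 centring and are no measure for the counts with it. Tox3, a brain and epithelial relative of Tox, read 3.02, 3.16 and 3.19 in ICN1 and 9.70, 7.12, 9.29 and 7.51 in TEL-JAK2. It was 38.9-fold higher (5.28 ± 0.63, adjusted p = 0.00138 by limma), and within TEL-JAK2 it was high in the arrays where Bcl11b was high. Its ICN1 level lay below the array medians, and whether Tox3 and Tle2 were above background there was not tested. Fli1, an ETS factor of blood progenitors, averaged 9.29 ± 0.19 over the ICN1 arrays (SD, n = 3) and 10.52 ± 0.16 over the TEL-JAK2 arrays (SD, n = 4), a difference of 1.23 ± 0.13. Tox4 differed by 0.52 ± 0.14, but read -0.11 with CD3 centring, and of the 7 leave-one-out fits it was called in 1, where TEL-JAK2 replicate 4 was omitted (adjusted p up to 0.0837 in the others). With CD3 centring 3 relatives were higher and 8 lower.

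Of 17 partners and corepressors, 2 were higher, 3 lower and 12 not called, with a median of -0.02. The share of genes called higher was near that over all genes, 11.9%, where 12.2% were called lower. Zfpm1, which encodes the GATA cofactor FOG1, was 3.08-fold lower (-1.62 ± 0.18, adjusted p = 0.00113 by limma). FOG1 also works in red cell precursors, whose markers were lower in TEL-JAK2 too. The part of red cells in the Zfpm1 difference was not tested. Ctnnb1, the WNT effector that binds TCF1 and LEF1, and Rbbp4, a subunit of the NuRD corepressor that BCL11B recruits, each differed by -0.43, with SE of 0.11 and 0.09. Ctnnb1 was called in 2 of the 7 leave-one-out fits, with ICN1 replicate 1 or TEL-JAK2 replicate 3 omitted (adjusted p up to 0.0867 in the other 5), and Rbbp4 lost its call without ICN1 replicates 1 and 2 (0.123). Tle2, a Groucho corepressor, was higher by 2.38 ± 0.55, from an ICN1 level of 3.84 that lay below the array medians, and Ldb1, an adaptor of LMO and GATA complexes, by 0.81 ± 0.21. Omitting ICN1 replicate 2, ICN1 replicate 3 or TEL-JAK2 replicate 1 ended the Tle2 call (adjusted p up to 0.0615). Ldb1 was called in 2 of the 7 leave-one-out fits, with ICN1 replicate 3 or TEL-JAK2 replicate 4 omitted (adjusted p up to 0.102 in the other 5), and was 0.18 with CD3 centring. With CD3 centring 1 gene of this list was higher and 10 lower.

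Of 15 other T-lineage transcription factors, 6 were higher, 0 lower and 9 not called, with a median of 0.30. Foxp1, which keeps T cells quiescent, was 2.87-fold higher (1.52 ± 0.21), Nfatc1, a calcium-regulated factor, 2.77-fold (1.47 ± 0.25) and Foxo1, an activator of homing genes, 1.76-fold (0.82 ± 0.11). With CD3 centring Foxp1 (0.90) and Nfatc1 (0.845) were called and Foxo1 (0.20) was not, and the list had 2 genes higher and 4 lower.

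**Figure D5:**
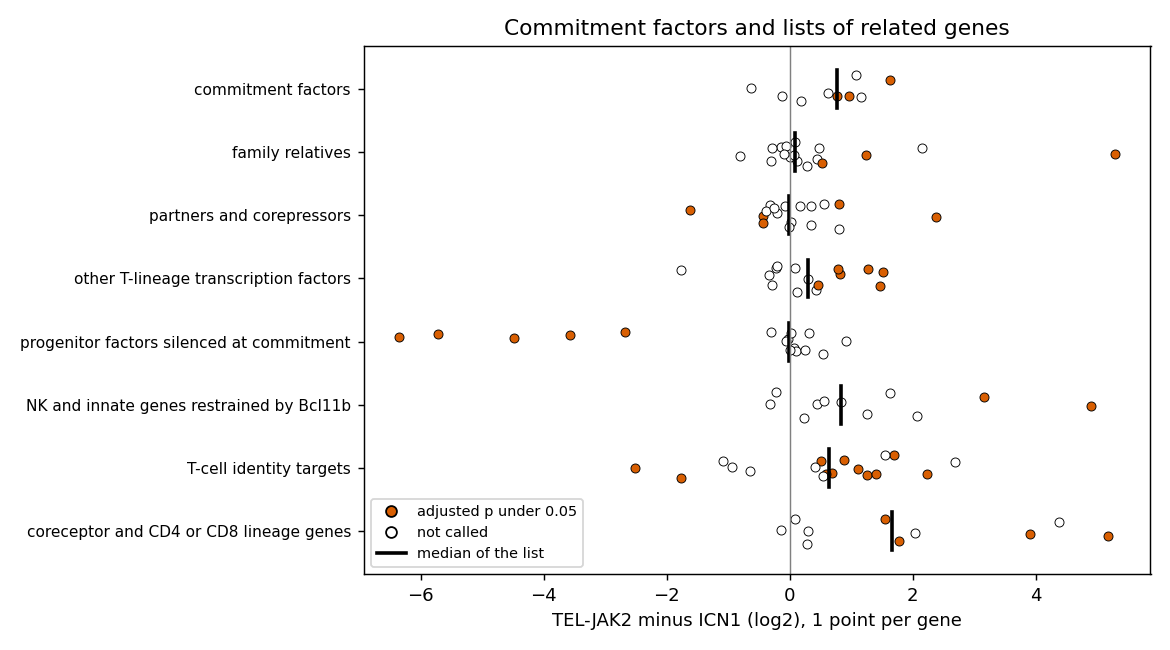
Difference between TEL-JAK2 and ICN1 (log2) for each gene of the commitment factors and of 7 lists of related genes, with filled points for an adjusted p under 0.05 and a bar at the median of the list. The median of the commitment factors is 0.76, and 5 progenitor factors lie below -2.6.

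Progenitor factors that T cells normally silence at commitment fell for 5 of 16 genes, and 11 were not called. These were Tal1 (-6.35 ± 0.10), Nfe2 (-5.72 ± 0.16), Lmo2 (-4.48 ± 0.44), Gfi1b (-3.57 ± 0.21) and Lyl1 (-2.68 ± 0.22). Tal1 averaged 10.19 ± 0.17 over the ICN1 arrays (SD, n = 3) and 3.85 ± 0.04 over the TEL-JAK2 arrays (SD, n = 4). Tal1, Nfe2, Lmo2 and Gfi1b are also known regulators of red cell precursors, and the erythroid list was lower in TEL-JAK2 in the same arrays, by a median of -6.74 over its 10 genes. The part of red cells in these differences was not tested. The median of the 16 genes was -0.01, and with CD3 centring 10 were lower.

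Natural killer and innate genes that BCL11B restrains in T cells were higher for 2 of 11, where 11.9% of all genes were. The other 9 were not called, and the median was 0.83. Nkg7, a cytotoxic granule protein, was 29.8-fold higher (4.90 ± 0.66) and Il2rb, the interleukin-2 receptor beta chain, 8.88-fold higher (3.15 ± 0.84). Il2rb was called in 2 of the 7 leave-one-out fits, with ICN1 replicate 1 or TEL-JAK2 replicate 3 omitted (adjusted p up to 0.107 by limma in the other 5). With CD3 centring, which lowers all differences alike, these 2 differences were 4.27 and 2.53. Bcl11b was higher in TEL-JAK2 as well, and a link between its level and these genes was not tested. The NK marker list read 6.17 to 6.84 in ICN1 and 7.09 to 8.62 in TEL-JAK2, with 2 of its 7 measured genes called, Gzma and Nkg7.

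Genes of T-cell identity that these factors activate were higher for 9 of 18, lower for 2 and not called for 7, with a median of 0.64. Themis, a thymocyte selection gene, differed by 1.41 ± 0.15, Cd2, an adhesion receptor, by 1.26 ± 0.14 and Lat, the signalling adaptor, by 1.11 ± 0.16. Ptcra, the pre-T-cell receptor alpha chain, was lower by -2.52 ± 0.62 and Cd5, a brake on receptor signalling, by -1.76 ± 0.49. Omitting ICN1 replicate 2, ICN1 replicate 3, TEL-JAK2 replicate 1 or TEL-JAK2 replicate 2 ended the Ptcra call (adjusted p up to 0.0827 by limma). Omitting any single ICN1 array, or TEL-JAK2 replicate 1, ended the Cd5 call (adjusted p up to 0.109). With CD3 centring 6 genes of the list were higher and 4 lower. The list includes Cd3d, Cd3e, Cd3g and Cd247, whose mean this centring makes equal in all arrays by construction.

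Of 10 coreceptor and lineage genes 4 were higher, 0 lower and 6 not called, with a median of 1.66. Itgae, the CD103 integrin of CD8 cells and a RUNX3 target, averaged 5.31 ± 0.74 over the ICN1 arrays (SD, n = 3) and 10.48 ± 0.78 over the TEL-JAK2 arrays (SD, n = 4), a difference of 5.17 ± 0.49. Cd8b1 differed by 1.77 ± 0.43 and Cd8a by 1.54 ± 0.42. Ccr9, a thymic homing receptor, differed by 3.90 ± 1.0. Cd8a, Cd8b1 and Ccr9 each lost the call without TEL-JAK2 replicates 1, 2 or 3 (adjusted p up to 0.0862, 0.0618 and 0.0741 by limma). Cd8a was not called without ICN1 replicates 1 and 2 (0.90, adjusted p = 0.109) or with CD3 centring (0.92, adjusted p = 0.0720). With CD3 centring 3 genes were higher and 1 lower.

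The marker lists of other cells are given by level, counts and named genes. Over all genes 11.9% were called higher and 12.2% lower. The erythroid list was lower in TEL-JAK2, with differences of its 10 genes from -8.77 to -0.81 and a median of -6.74. Its brightest genes Tfrc (-1.67 ± 0.31, called) and Gata1 (-0.81 ± 0.26, not called) differed least. Brightness was the mean over all 7 arrays, which favours genes that stay high in both groups. The megakaryocyte list read 6.44 to 7.86 in ICN1 and 5.35 to 5.59 in TEL-JAK2, with 4 of 6 genes lower. These were Ppbp (-5.67 ± 0.69), Pf4 (-2.24 ± 0.63), Itga2b (-0.98 ± 0.23) and Gp9 (-0.92 ± 0.23). The granulocyte list read 6.48 to 8.61 in ICN1 and 5.25 to 5.67 in TEL-JAK2, with 5 of 8 genes lower. These were S100a9 (-3.36 ± 0.58), S100a8 (-3.17 ± 0.60), Ngp (-3.08 ± 0.74), Lcn2 (-2.27 ± 0.57) and Camp (-2.14 ± 0.59). The macrophage list read 8.80 to 10.17 in ICN1 and 6.35 to 8.44 in TEL-JAK2, with 5 of 9 genes lower. These were Vcam1 (-4.79 ± 1.05), Mrc1 (-3.45 ± 0.84), Csf1r (-2.59 ± 0.68), Axl (-2.36 ± 0.39) and Cd14 (-1.46 ± 0.42), while Lyz2 (0.31 ± 0.45) was not called.

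The B-lineage list read 6.05 to 7.40 in ICN1 and 6.70 to 7.61 in TEL-JAK2, with a median difference of 0.09. Blk (2.33 ± 0.59) and Vpreb1 (2.28 ± 0.53) were higher, and 9 of 11 genes, among them Ighm (-0.43 ± 0.53), were not called. The dendritic cell list read 6.35 to 7.86 in ICN1 and 7.49 to 8.83 in TEL-JAK2, and none of its 8 genes was called, with H2-Aa at 1.84 ± 0.93 and Cd74 at 1.52 ± 0.87. By the same limma fit 1 of the 8 passed an unadjusted p under 0.05. The thymic epithelium list read 4.89 to 5.30 in ICN1 and 5.88 to 6.35 in TEL-JAK2, with 3 of 8 genes higher. These were Epcam (6.15 ± 0.48), Aire (0.87 ± 0.26) and Foxn1 (0.33 ± 0.10), while Ccl25 (-0.20 ± 0.22) was not called. Foxn1 averaged 4.52 in ICN1 and 4.85 in TEL-JAK2, below the array medians. The ICN1 means of Aire (5.39) and Epcam (4.78) also lay below them. Whether these readings were above background was not tested. The NK genes Gzma and Nkg7 were higher by 2.18 ± 0.35 and 4.90 ± 0.66. The T-cell genes Cd3d (0.51 ± 0.11, called) and Thy1 (0.54 ± 0.21, not called) stood higher in TEL-JAK2.

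Of these marker calls, Ppbp, Axl, Tfrc, S100a8, S100a9, Epcam, Gzma, Nkg7 and Cd3d held in all 7 leave-one-out fits. Omitting ICN1 replicate 1 ended those of Vpreb1, Blk, Pf4, Gp9, Camp, Lcn2, Ngp, Cd14, Mrc1, Csf1r, Vcam1, Aire and Foxn1. Omitting ICN1 replicate 2 ended those of Gp9, Cd14, Mrc1, Csf1r, Vcam1, Aire and Foxn1, and omitting ICN1 replicate 3 those of Blk, Aire and Foxn1. Omitting TEL-JAK2 replicate 1 ended those of Pf4, Itga2b, Gp9, Camp, Lcn2, Ngp, Cd14, Mrc1, Csf1r, Aire and Foxn1, and omitting TEL-JAK2 replicate 2 those of Pf4, Gp9, Camp, Lcn2, Ngp, Cd14 and Aire. Omitting TEL-JAK2 replicate 3 ended those of Vpreb1, Pf4, Camp, Lcn2, Cd14, Mrc1 and Foxn1, and omitting TEL-JAK2 replicate 4 those of Blk, Gp9, Camp, Cd14 and Foxn1. The highest adjusted p in these fits was 0.140, for Foxn1 (limma).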

How the data were processed

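RNA of 7 samples was measured on Affymetrix mouse arrays, 1 array each. The authors deposited 1 table of log2 values per probe set, made with RMA per the submitters' processing notes (background correction, normalization across arrays, probe summary), with version and settings not given in the sources used here. RMA draws arrays toward 1 distribution and compresses folds near background. The number of arrays limits the precision. Scan dates and detection calls played no part. Of 45037 probe sets, 34945 had 1 gene symbol, 932 several and 9160 none. No column was unused (0).

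Probe sets (45037) and genes (18193, each by its brightest single-symbol probe set) were fitted with limma 3.58.1 in R 4.3.3 (lmFit, eBayes, two-sided, Benjamini-Hochberg). The fit was tested on simulated data. Members, lists and tests were chosen with earlier results of these data known. Named from each list were up to 3 called genes per direction, all where 5 or fewer were called, and the 2 brightest genes of each marker list; uncalled list genes are given as counts. Xist and Eif2s3y were added after their values were seen. Alternatives covered other scalings, filters, tests and left-out arrays. List genes without a probe set of 1 symbol were not analysed here. Promoters came from RefSeq. Figures used matplotlib 3.10.9.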

Additional observations from a re-analysis of the deposited data

Results flagged for a closer look

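Within TEL-JAK2, a group of 4 arrays, 1 array can be called outlying when its gap to the nearest other array exceeds the share of the group's range that Dixon's test allows at the 95% level. Of 89 items tested over the TEL-JAK2 arrays, 29 of them member probe sets, 4 met this, and chance gives about 1 in 20. Among the members it was the dim Runx1 probe set 1452531_at, at 6.56 in TEL-JAK2 replicate 4, above the other TEL-JAK2 arrays, whereas this array was the lowest for the other 5 Runx1 probe sets. Ccr9 read 9.91 in TEL-JAK2 replicate 4, below the others. Ccl25 read 5.85 in TEL-JAK2 replicate 3, below the others, and Gp9 read 6.74 there, above the others.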

How the results depend on the processing

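Bcl11b kept its direction and its call in all 21 alternative fits. The counts of 3 member genes and 9 member probe sets higher became 1 and 4 with CD3 centring, 1 and 4 in a test against a 1.5-fold difference, 1 and 4 at an adjusted p under 0.01, and 1 and 3 in a per-gene test with unequal variances. For the related lists together, 26 genes higher and 10 lower became 17 and 35 with CD3 centring, 7 and 6 against 1.5-fold, and 10 and 6 at an adjusted p under 0.01, with 6 higher under unequal variances. Over all genes the calls higher also fell in each of these settings. The calls lower over all genes rose with CD3 centring, to most genes, and fell in the other settings. Member genes and probe sets lower went from 0 and 0 to 2 and 4 with CD3 centring and to 1 and 2 without ICN1 replicates 1 and 2, where the lone ICN1 array is assumed to vary like the others. Fits without 1 array gave 5 (without ICN1 replicate 2 or TEL-JAK2 replicate 1) to 12 (without TEL-JAK2 replicate 4) member probe sets higher, 11 without ICN1 replicate 1, 6 without ICN1 replicate 3 or TEL-JAK2 replicate 3, and 0 to 2 lower. They gave 2 to 3 member genes higher and 0 to 1 lower, the latter being Lef1 without ICN1 replicate 2, and 15 (without TEL-JAK2 replicate 1) to 27 list genes higher.

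Uncalled differences that changed sign with CD3 centring were Gata3 (-0.003), Satb1 (-0.43, and -0.44, -0.14, -0.61 and -0.52 in its other probe sets), Zbtb7b 1420663_at (-0.52), Runx3 1421467_at (-0.13), Runx1 1427650_a_at (-0.34), Tox 1442039_at (-0.19), Thy1 (-0.0846) and Lyz2 (-0.31). The called Tox4 (-0.11), Cd3d (-0.11) and Foxn1 (-0.29) did so too. CD3 centring lowers all differences alike by construction, and Cd3d is among the genes it uses. Without ICN1 replicates 1 and 2 the sign changed for Runx3 (-0.17), Satb1 (-0.14, and -0.0914 in 1439449_at), Runx1 1452531_at (0.11), Ighm (0.28) and Lyz2 (-0.0055). When probe sets were averaged per gene, Runx3 minus Runx1 was 0.18. Ranges without 1 array crossed 0 for Zbtb7b (-0.24 to 0.0018, and -0.0287 to 0.21 in 1420663_at), Satb1 1439315_at (-0.26 to 0.41) and 1439449_at (-0.18 to 0.32), Runx1 1452530_a_at (-0.20 to 0.017) and 1452531_at (-0.17 to 0.0161), Ighm (-0.79 to 0.0164), Ccl25 (-0.42 to 0.0257) and Runx3 minus Runx1 (-0.50 to 0.45). The cause was not tested. Over all alternative fits, 478 comparisons for members and their probe sets kept direction and side of the threshold, 46 lost the call, 18 gained it and 26 changed sign. For named list genes 928 kept both, 223 lost the call, 7 gained it and 9 changed sign. No paired analysis was possible because replicate numbers were given in accession order and pair nothing.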
